A study of Mus musculus with 41 samples.

Results

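Messenger RNA of 10 genes tied to failed repair of kidney tubules was followed through mouse kidneys after ischemic injury, with and without removal of the opposite kidney. The genes are Vcam1, Icam1 and Cd44 (adhesion molecules), Relb, Nfkb1 and Nfkb2 (NF-kappaB subunits), Birc3 and Traf1 (adaptors of tumour necrosis factor receptors) and Tnfaip3 and Nfkbia (inhibitors of NF-kappaB). They were picked by name, with no threshold on their values but with earlier results of these data known. They make up 10 of the 48795 genes in the count table. All 10 were present, and all 10 passed the filter on low counts in both sets of kidneys.

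The first set held 24 libraries from male mice of 8 to 10 weeks, in 4 groups of 6. In 3 of these groups blood flow to the left kidney was stopped for 21 min, with body core held at 34 °C (unilateral ischemia-reperfusion injury, UIRI). The group UIRI+Nx d7 had the uninjured right kidney removed on day 3 (nephrectomy, Nx) and was killed on day 7. UIRI d7 was killed on day 7 with the right kidney left in place, after a sham operation on day 3 according to the series' design text. UIRI d3 was killed on day 3, and Control mice had no ischemia. The second set, whose titles carry WT, held 16 libraries in 3 groups with no uninjured control: WT_IRNxd7 (UIRI and Nx, day 7, n = 4), WT_IRd7 (UIRI, day 7, n = 6) and WT_IRd3 (UIRI, day 3, n = 6). The sources used here do not give sex, age, ischemia time, the day of nephrectomy or any sham operation for the WT set, nor the strain for either set. RNA came from a frozen section of a kidney pole, so that the cells sampled are a mixture.

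NF-kappaB is a family of transcription factors that inhibitor proteins such as IkappaB-alpha, the product of Nfkbia, hold in the cytoplasm. In the canonical pathway, cytokine receptors cause the inhibitor to be degraded and dimers that contain p50, made from Nfkb1, enter the nucleus. In the non-canonical pathway the precursor made from Nfkb2 is trimmed to p52, which pairs with the product of Relb, and TRAF and IAP proteins keep that pathway in check. Several targets of NF-kappaB feed back on it, among them Nfkbia and Tnfaip3, which encodes the ubiquitin-editing enzyme A20. In injured kidneys, proximal tubule cells that do not recover are known for VCAM1 and for NF-kappaB target genes, while endothelium and leukocytes also carry several of these molecules.

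Total counts per library ran from 5090418 to 33362940. Levels are given as CPM, a gene's count relative to its library's total, with totals scaled by TMM (trimmed mean of M-values). Fold changes, their standard errors and p-values are from edgeR's quasi-likelihood test, with Benjamini-Hochberg adjustment over all 15701 genes tested in the first set or all 15543 in the WT set, and a gene is said to rise or fall where its adjusted p was under 0.05. Proximal tubule markers summed to 12370 to 14420 CPM in Control kidneys, with none of the 10 markers at 0, as befits kidney tissue. Of the 40 grouped libraries, 1 lay nearer to another group than to its own over the 2000 genes used for this check: WT_IRNxd7 replicate 3, whose median correlation was 0.948 with WT_IRd7 and 0.939 with its own group. UIRI d7 replicate 4 had the lowest median correlation with its own group (0.778), and its 10 genes lay on average 0.46 below the UIRI d7 mean on the log2 scale. UIRI d3 replicate 3 had a summed neutrophil marker level of 2002 CPM, against 45.4 to 222 CPM in the other UIRI d3 libraries. Some calls among the 10 genes and some counts over other lists are also given without these libraries. Other counts, and all marker sums, are given with all libraries. Some of those counts change without the libraries named here. No 2 libraries held identical counts. Nothing in the labels says that the WT libraries came from separate animals, so their p-values measure the spread between these samples only.

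Promoter sequences are shown first for the genes that feed back on the pathway, because NF-kappaB binding sites are well known there. RefSeq (GRCm38.p6) windows from 250 bases before to 50 bases after a gene start were on hand for 7 of the 10 genes, 10 windows in all. The NF-kappaB consensus, a motif of 10 letters, was searched on both strands with overlaps allowed. It occurred in 5 of the 10 windows (50.0%), those of Nfkb2, Tnfaip3 and Nfkbia, against 8.46% of all 32851 windows of 300 bases. Some windows of Nfkb2 overlap, so the count by window holds a shared site more than once. By gene, 3 of 7 had a match, against 9.55% of all 27025 genes with a window. The windows of Icam1, Cd44, Birc3 and Traf1 and promoter 1 of Tnfaip3 held no match, which says only that these letters do not occur there. Printed 5′ to 3′ on the gene's strand, with matches in capitals, the 3 windows that hold a match within 40 bases before the start are:
Nfkb2 promoter 1, chr19:46304487-46304786, strand +: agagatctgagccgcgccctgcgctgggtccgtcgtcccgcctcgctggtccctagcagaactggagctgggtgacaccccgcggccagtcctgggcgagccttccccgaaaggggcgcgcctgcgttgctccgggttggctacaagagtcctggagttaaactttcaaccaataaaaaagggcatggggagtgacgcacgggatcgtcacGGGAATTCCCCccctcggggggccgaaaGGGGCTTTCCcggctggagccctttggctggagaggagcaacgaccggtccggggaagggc
Tnfaip3 promoter 2, chr10:19015361-19015660, strand -: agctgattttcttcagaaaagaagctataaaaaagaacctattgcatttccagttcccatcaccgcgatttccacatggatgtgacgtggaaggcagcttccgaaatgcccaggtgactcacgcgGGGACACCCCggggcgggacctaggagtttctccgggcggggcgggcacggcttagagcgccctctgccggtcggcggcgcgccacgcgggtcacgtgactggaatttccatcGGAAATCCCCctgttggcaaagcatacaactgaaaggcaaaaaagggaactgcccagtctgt
Nfkbia promoter 1, chr12:55492598-55492897, strand -: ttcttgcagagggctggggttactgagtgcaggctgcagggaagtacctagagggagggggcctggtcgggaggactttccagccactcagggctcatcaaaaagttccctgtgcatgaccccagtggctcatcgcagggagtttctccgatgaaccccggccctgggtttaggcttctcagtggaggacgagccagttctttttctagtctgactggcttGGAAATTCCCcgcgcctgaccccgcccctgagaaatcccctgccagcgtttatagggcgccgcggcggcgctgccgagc

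In the first window of Nfkb2 a palindromic match began 39 bases before the start and read GGGAATTCCC. It overlapped a second match that began 38 bases before the start, and a further match, GGGGCTTTCC, began 11 bases before it. The other windows of Nfkb2 overlap each other and share a site, GGGACTTTCC, and one of them holds another match farther upstream. Tnfaip3 had matches at 125 and 12 bases before its second start, the nearer one reading GGAAATCCCC. Nfkbia had a match, GGAAATTCCC, at 29 bases before its start. A match is a stretch of letters and does not show that a factor was bound in these kidneys.

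**Figure D1:**
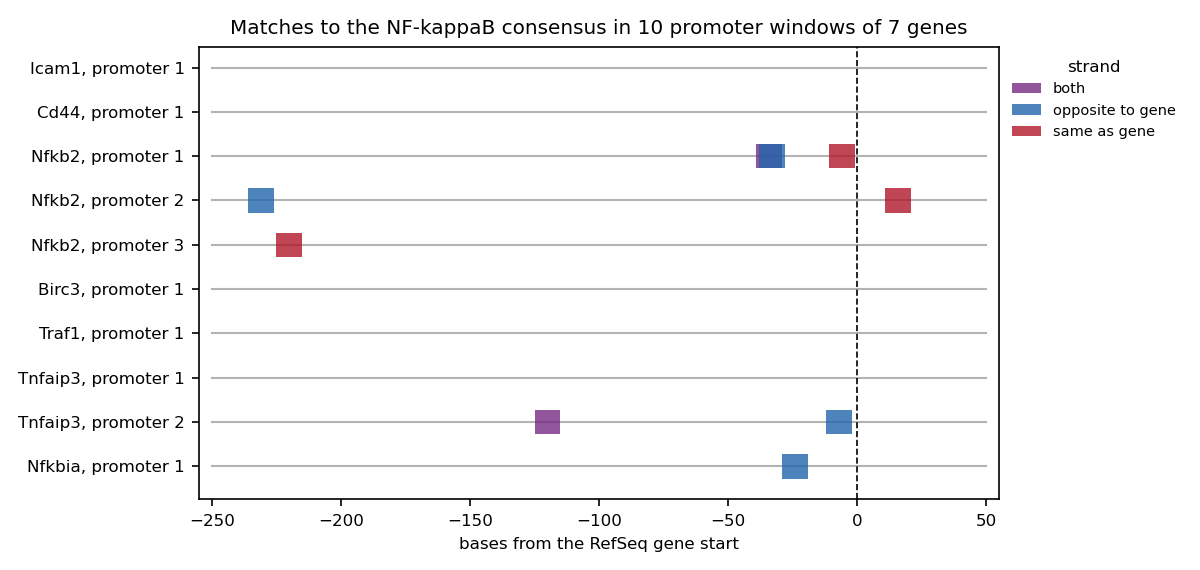
Position of each match to the NF-kappaB consensus (bars, 10 bases long, coloured by strand) along 10 RefSeq promoter windows of 7 genes; the x axis gives bases from the gene start and the dashed line marks the start. Matches lie in the windows of Nfkb2, Tnfaip3 and Nfkbia, 5 windows in all.

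Vcam1 (ENSMUSG00000027962, chr3:116109949-116129688 in GRCm38, minus strand) encodes the vascular cell adhesion molecule that binds integrin alpha-4 beta-1 on leukocytes. The lowest, median and highest libraries had 122, 159 and 206 CPM in UIRI+Nx d7, and 341, 506 and 712 CPM in UIRI d7. The same 3 points were 246, 390.5 and 521 CPM in UIRI d3, and 16.7, 27.2 and 34.1 CPM in Control. Every injured library lay above every Control library, and every UIRI+Nx d7 library lay below every UIRI d7 and every UIRI d3 library. UIRI d7 exceeded Control 19.5-fold (log2 fold change 4.29, SE 0.25, edgeR adjusted p = 1.34e-12), UIRI d3 exceeded it 14.9-fold (log2 fold change 3.90, SE 0.24, adjusted p = 5.71e-12), and UIRI+Nx d7 exceeded it 6.12-fold (log2 fold change 2.61, SE 0.23, adjusted p = 2.09e-09). Between UIRI+Nx d7 and UIRI d7, Vcam1 fell by 1.68 on the log2 scale (SE 0.22, edgeR adjusted p = 2.92e-05).

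In WT kidneys the 4 WT_IRNxd7 libraries had 207, 144, 560.2 and 283 CPM of Vcam1, and WT_IRd7 libraries had a lowest of 493, a median of 699 and a highest of 866 CPM. WT_IRd3 libraries had 279, 372 and 439 CPM at the same points. WT_IRNxd7 replicate 3, the library nearer to WT_IRd7, was the only one of its group inside the WT_IRd7 range. Vcam1 fell by 1.23 on the log2 scale between WT_IRNxd7 and WT_IRd7 (SE 0.27, edgeR adjusted p = 0.0115). The estimate was -1.73 without that library. WT_IRd7 exceeded WT_IRd3 1.92-fold, with no overlap of libraries (log2 fold change 0.94, SE 0.24, edgeR adjusted p = 0.0166). With the library block as a covariate this estimate was 0.42 and its adjusted p was 0.411.

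Icam1 (ENSMUSG00000037405, chr9:21015985-21028817, plus strand) encodes the ligand of the leukocyte integrins LFA-1 and Mac-1. UIRI+Nx d7 libraries had 12.9, 18.4 and 36.3 CPM (lowest, median, highest), UIRI d7 libraries 36.7, 48.3 and 68.6 CPM, UIRI d3 libraries 23.7, 36.9 and 48.6 CPM, and Control libraries 7.01, 10.1 and 17.7 CPM. All UIRI+Nx d7 libraries lay below all UIRI d7 libraries, by a narrow gap at UIRI+Nx d7 replicate 4, and their range overlapped that of Control. Icam1 fell by 1.25 on the log2 scale in UIRI+Nx d7 relative to UIRI d7 (SE 0.25, edgeR adjusted p = 0.00225) and remained 1.92-fold above Control (adjusted p = 0.0042). Relative to UIRI d3 the UIRI+Nx d7 estimate of -0.81 missed the threshold (SE 0.24, edgeR adjusted p = 0.0522). It passed under 6 alternatives. By edgeR these were no UIRI+Nx d7 replicate 4 (estimate -1.04, adjusted p = 0.0121), no UIRI d3 replicate 1 (0.0378), RLE scaling (0.0484), the replicate block (0.0423) and the library block as a covariate (0.00705), and by DESeq2 the adjusted p was 0.0215.

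WT_IRNxd7 libraries had 30.2, 25.9, 46.9 and 42.7 CPM of Icam1, all below the lowest of the WT_IRd7 libraries, whose lowest, median and highest were 47.4, 62.9 and 76.4 CPM. WT_IRd3 libraries had 26.4, 38.6 and 43.7 CPM. Icam1 fell by 0.79 on the log2 scale between WT_IRNxd7 and WT_IRd7 (SE 0.18, edgeR adjusted p = 0.016), and the adjusted p was 0.0539 without WT_IRNxd7 replicate 1 and 0.0838 without WT_IRNxd7 replicate 2. It rose in WT_IRd7 relative to WT_IRd3 by 0.78 (SE 0.16, edgeR adjusted p = 0.0046), an estimate of 0.50 with the library block as a covariate (adjusted p = 0.148).

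Cd44 (ENSMUSG00000005087, chr2:102811141-102901665, minus strand) encodes the main cell surface receptor for hyaluronan. Its lowest, median and highest libraries were at 39.3, 48.8 and 50.9 CPM in UIRI+Nx d7, at 48.0, 102.5 and 161 CPM in UIRI d7 and at 55.7, 93.7 and 125 CPM in UIRI d3. Control libraries had 2.85, 3.48 and 5.73 CPM. Injured libraries were all far above Control, and UIRI+Nx d7 overlapped UIRI d7 only because UIRI d7 replicate 4, the library with the lowest correlation to its group, was at 48.0 CPM. The increase over Control was 28.8-fold in UIRI d7 (log2 fold change 4.85, SE 0.26), 25.2-fold in UIRI d3 (4.66, SE 0.26) and 12.8-fold in UIRI+Nx d7 (3.68, SE 0.25), with edgeR adjusted p-values of 4.35e-13, 1.19e-12 and 2.07e-11. Cd44 fell by 1.17 on the log2 scale in UIRI+Nx d7 relative to UIRI d7 (SE 0.22, edgeR adjusted p = 0.00163), and the estimate without UIRI d7 replicate 4 was -1.32.

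WT_IRNxd7 libraries had 65.6, 26.7, 59.6 and 36.8 CPM of Cd44, all below the WT_IRd7 libraries (lowest 76.0, median 100.2, highest 133 CPM). WT_IRd3 libraries had 63.1, 87.6 and 110.3 CPM. The nephrectomised kidneys thus held less Cd44 than the kidneys of the same day in each set, and it fell by 1.13 on the log2 scale between WT_IRNxd7 and WT_IRd7 (SE 0.24, edgeR adjusted p = 0.0096). Between WT_IRd7 and WT_IRd3 the log2 difference of 0.24 did not pass the test (SE 0.21, edgeR adjusted p = 0.544).

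**Figure D2:**
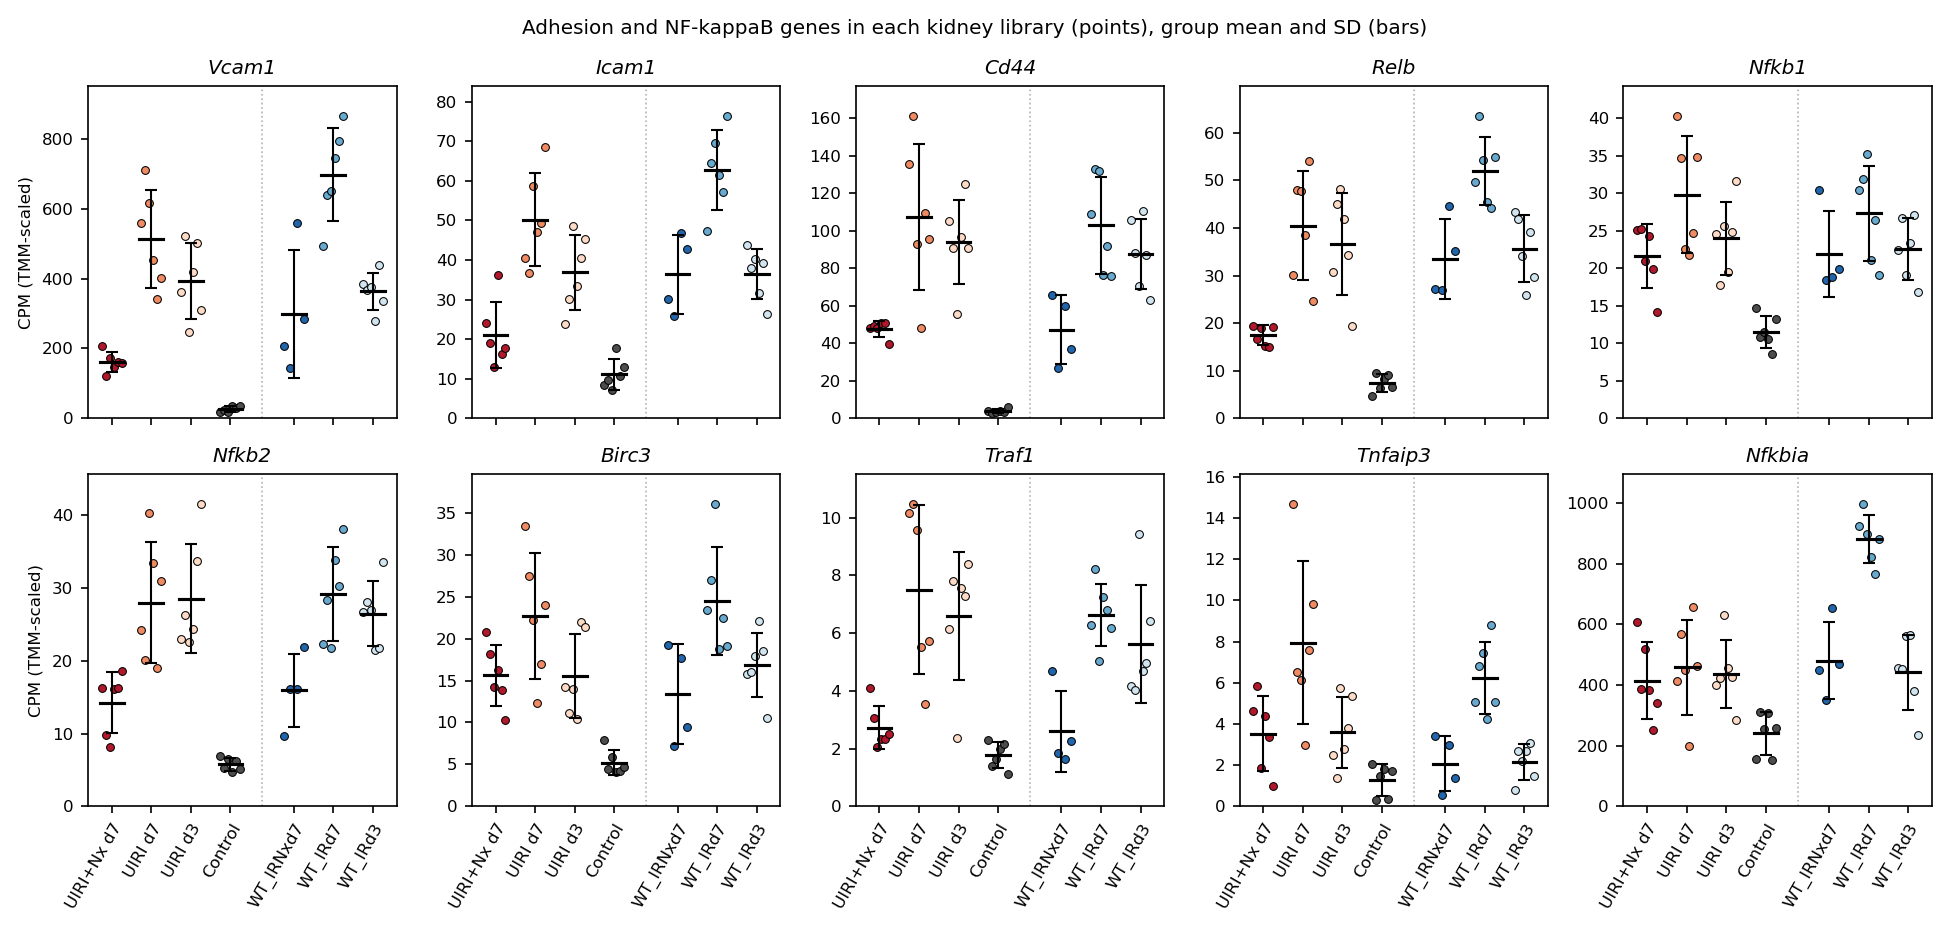
CPM of the 10 genes in each library (points), with the group mean (line) and SD (bars); UIRI+Nx d7, UIRI d7, UIRI d3 and Control are left of the dotted line and WT_IRNxd7, WT_IRd7 and WT_IRd3 right of it, and each panel has its own linear axis from 0. The mean is highest in UIRI d7 for 9 of the 10 genes and in WT_IRd7 for 10 of 10, and the share of all genes was not counted. Between UIRI d7 and UIRI d3, 0 of the 10 were called. Between WT_IRd7 and WT_IRd3, 5 rose, and 1 with the library block as a covariate.

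Relb (ENSMUSG00000002983, chr7:19606217-19629438, minus strand) encodes the NF-kappaB subunit of the non-canonical pathway. UIRI+Nx d7 libraries had 15.0, 17.9 and 19.5 CPM (lowest, median, highest), UIRI d7 libraries 24.6, 43.1 and 54.2 CPM, UIRI d3 libraries 19.5, 38.1 and 48.3 CPM, and Control libraries 4.67, 7.34 and 9.39 CPM. The UIRI+Nx d7 libraries formed a tight band that touched neither UIRI d7 nor Control and met UIRI d3 at its lowest library. Relb rose 5.49-fold over Control in UIRI d7, 4.95-fold in UIRI d3 and 2.36-fold in UIRI+Nx d7 (edgeR adjusted p = 3.03e-09, 1.00e-08 and 8.29e-05). It fell by 1.22 on the log2 scale in UIRI+Nx d7 relative to UIRI d7 (SE 0.22, edgeR adjusted p = 0.000935).

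In the WT set Relb was at 27.1, 27.0, 44.6 and 35.2 CPM in the WT_IRNxd7 libraries, against 44.2, 52.1 and 63.5 CPM (lowest, median, highest) in WT_IRd7 and 25.8, 36.6 and 43.4 CPM in WT_IRd3. The fall of 0.64 on the log2 scale between WT_IRNxd7 and WT_IRd7 was close to the threshold (SE 0.18, edgeR adjusted p = 0.0403), and it was lost without any of WT_IRNxd7 replicates 1, 2 and 4 or WT_IRd7 replicates 1, 2, 3, 4 and 6. The highest adjusted p among these was 0.171, without WT_IRNxd7 replicate 2.

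Nfkb2 (ENSMUSG00000025225, chr19:46304320-46312385, plus strand) encodes p100, the precursor of p52. UIRI+Nx d7 libraries had 8.17, 16.2 and 18.6 CPM and UIRI d7 libraries 19.0, 27.6 and 40.3 CPM. UIRI d3 libraries had 22.6, 25.3 and 41.5 CPM and Control libraries 4.67, 5.73 and 6.88 CPM. UIRI+Nx d7 lay wholly between Control and the other injured groups. Nfkb2 was the only one of the 10 genes with its highest mean in UIRI d3, but UIRI d7 and UIRI d3 did not differ beyond their spread (log2 fold change -0.03, SE 0.22, edgeR adjusted p = 0.974). It fell by 0.97 on the log2 scale in UIRI+Nx d7 relative to UIRI d7 (SE 0.22, edgeR adjusted p = 0.0077) and rose 2.47-fold over Control (adjusted p = 5.42e-05). The 4 WT_IRNxd7 libraries had 9.65, 16.2, 16.1 and 22.0 CPM, and the lowest, median and highest WT_IRd7 libraries 21.8, 29.4 and 38.2 CPM. Those groups overlapped at WT_IRNxd7 replicate 4, and Nfkb2 fell by 0.87 between them (SE 0.21, edgeR adjusted p = 0.0188). The adjusted p was 0.0584 without WT_IRNxd7 replicate 1 and 0.0636 without WT_IRNxd7 replicate 2.

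Nfkb1 (ENSMUSG00000028163, chr3:135584655-135691547, minus strand) encodes the precursor of p50. It averaged 21.6 ± 4.29 CPM in UIRI+Nx d7, 29.8 ± 7.76 in UIRI d7, 23.95 ± 4.89 in UIRI d3 and 11.5 ± 2.15 in Control (SD, n = 6 each). It rose over Control in all 3 injured groups, with log2 fold changes of 0.91 in UIRI+Nx d7, 1.37 in UIRI d7 and 1.06 in UIRI d3. Its difference between UIRI+Nx d7 and UIRI d7 was -0.46 (SE 0.19, edgeR adjusted p = 0.151) and that between WT_IRNxd7 and WT_IRd7 was -0.33 (SE 0.20, adjusted p = 0.386). Neither passed the test.

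Birc3 (ENSMUSG00000032000, chr9:7848699-7873186, minus strand) encodes cIAP2, a ubiquitin ligase recruited by TRAF proteins. UIRI+Nx d7 averaged 15.6 ± 3.65 CPM, UIRI d7 22.7 ± 7.50, UIRI d3 15.5 ± 5.02 and Control 5.19 ± 1.47 (SD, n = 6 each), and all injured libraries lay above all Control libraries. Birc3 rose over Control 3.01-fold in UIRI+Nx d7, 4.39-fold in UIRI d7 and 3.00-fold in UIRI d3. The difference of -0.54 between UIRI+Nx d7 and UIRI d7 did not pass the test (SE 0.24, edgeR adjusted p = 0.192). Between WT_IRNxd7 and WT_IRd7 it was -0.87 (SE 0.27, edgeR adjusted p = 0.0623), and DESeq2 gave that difference an adjusted p of 0.021.

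Traf1 (ENSMUSG00000026875, chr2:34941750-34961772, minus strand) encodes an adaptor that itself is a target of NF-kappaB. It was a low-count gene, with 12 to 53 counts in UIRI+Nx d7 libraries and 14 to 45 in Control libraries. UIRI+Nx d7 libraries had 2.04, 2.42 and 4.10 CPM (lowest, median, highest), UIRI d7 libraries 3.55, 7.66 and 10.5 CPM, UIRI d3 libraries 2.36, 7.43 and 8.40 CPM and Control libraries 1.13, 1.81 and 2.29 CPM. UIRI+Nx d7 overlapped Control and only just reached into UIRI d7. Traf1 rose over Control in UIRI d7 (4.26-fold, edgeR adjusted p = 3.40e-06) and UIRI d3 (3.74-fold, adjusted p = 1.63e-05), while the UIRI+Nx d7 estimate of 1.55-fold did not pass the test (adjusted p = 0.12).

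Between UIRI+Nx d7 and UIRI d7, Traf1 fell by 1.46 on the log2 scale (SE 0.30, edgeR adjusted p = 0.00317). WT_IRNxd7 libraries had 4.67, 1.84, 1.63 and 2.25 CPM, all below the WT_IRd7 libraries (lowest 5.02, median 6.55, highest 8.20 CPM). Traf1 fell by 1.395 on the log2 scale between these groups (SE 0.31, edgeR adjusted p = 0.0115), and the adjusted p was 0.066 without WT_IRNxd7 replicate 2.

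Nfkbia (ENSMUSG00000021025, chr12:55489410-55492647, minus strand) encodes IkappaB-alpha. UIRI+Nx d7 libraries had 251, 385 and 606.5 CPM, UIRI d7 libraries 199, 456 and 657 CPM, UIRI d3 libraries 286, 424 and 629 CPM, and Control libraries 153, 258 and 312 CPM (lowest, median, highest). Every pair of groups overlapped. Nfkbia rose over Control 1.90-fold in UIRI d7, 1.81-fold in UIRI d3 and 1.72-fold in UIRI+Nx d7 (edgeR adjusted p = 0.00469, 0.0103 and 0.0195). The last of these calls was lost without UIRI+Nx d7 replicate 1 (adjusted p = 0.0611), Control replicate 1 (0.0513) or Control replicate 5 (0.0539). Between UIRI+Nx d7 and UIRI d7 the estimate was -0.14 (SE 0.25, edgeR adjusted p = 0.814), and 0.06 with the library block as a covariate.

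Nfkbia was also followed in the WT kidneys. WT_IRNxd7 libraries had 449.7, 350.0, 654 and 468 CPM, WT_IRd7 libraries 766, 889 and 996 CPM (lowest, median, highest) and WT_IRd3 libraries 236, 455 and 564 CPM. All WT_IRd7 libraries lay above all those of both other groups. Nfkbia fell by 0.88 on the log2 scale between WT_IRNxd7 and WT_IRd7 (SE 0.21, edgeR adjusted p = 0.0173) and rose 1.99-fold in WT_IRd7 over WT_IRd3 (adjusted p = 0.00169). Without WT_IRNxd7 replicate 2 the adjusted p of the fall was 0.0884. In a joint fit of all 7 groups, the nephrectomy difference of the WT set minus that of the first set was -0.72 for Nfkbia (SE 0.35, edgeR adjusted p = 0.583 over 16606 genes), so the sets were not shown to differ.

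Tnfaip3 (ENSMUSG00000019850, chr10:19000910-19015657, minus strand) encodes A20 and was also a low-count gene, with 11 to 88 counts per library in UIRI+Nx d7 and 6 to 40 in Control. UIRI+Nx d7 averaged 3.52 ± 1.82 CPM, UIRI d7 7.95 ± 3.97, UIRI d3 3.59 ± 1.71 and Control 1.28 ± 0.762 (SD, n = 6 each). It rose over Control in all 3 injured groups, most in UIRI d7 (6.36-fold, edgeR adjusted p = 6.07e-05). The estimate of -1.16 between UIRI+Nx d7 and UIRI d7 had an SE of 0.45 and did not pass the test (edgeR adjusted p = 0.125). In the WT set, WT_IRNxd7 libraries had 3.42, 0.559, 2.96 and 1.37 CPM, against a lowest of 4.22, a median of 5.96 and a highest of 8.82 CPM in WT_IRd7 and 0.798, 2.43 and 3.08 CPM in WT_IRd3. WT_IRd7 stood above both other groups without overlap. Tnfaip3 fell by 1.62 on the log2 scale between WT_IRNxd7 and WT_IRd7 (SE 0.43, edgeR adjusted p = 0.0321) and rose 2.89-fold in WT_IRd7 over WT_IRd3 (adjusted p = 0.012). With the library block as a covariate, the estimate of that rise was 1.425 on the log2 scale and its edgeR adjusted p was 0.1065. The nephrectomy call was lost without WT_IRNxd7 replicate 2 (adjusted p = 0.107) or 4 (0.0816), or WT_IRd7 replicate 2 (0.0541), 3 (0.0547) or 5 (0.0694).

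Counts over the 10 genes were as follows. The genes were chosen with earlier results of these data known, so the shares of all genes are not a blind yardstick. All 10 rose in UIRI d7 relative to Control, where edgeR called 21.5% of all genes higher and 18.1% lower, and the median log2 fold change of the 10 was 2.23 against 0.04 over all genes tested. All 10 rose in UIRI d3, with 17.8% of all genes higher and 14.9% lower, and a median of 1.82. In UIRI+Nx d7, 9 of 10 rose, with 17.3% of all genes higher and 14.0% lower, and a median of 1.27. Traf1 was the exception. Libraries of UIRI d7 were all above Control for 9 genes (not Nfkbia), those of UIRI d3 for 8 and those of UIRI+Nx d7 for 5. Of all genes tested this held for 10.9% in UIRI d7, 10.3% in UIRI d3 and 9.74% in UIRI+Nx d7. These 3 comparisons share the Control libraries. The 10 rose without UIRI d7 replicate 4 and without UIRI d3 replicate 3 as well.

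On day 7 the kidneys with and without nephrectomy were compared in each set. In UIRI+Nx d7 relative to UIRI d7, 6 of 10 genes fell and none rose, where edgeR called 3.46% of all genes lower and 3.17% higher. The 6 were Vcam1, Icam1, Cd44, Relb, Nfkb2 and Traf1. Estimates were below 0 for all 10, with a median of -1.17 against -0.01 over all genes tested, and all libraries were lower for 4 of them, which held for 1.45% of all genes. In WT_IRNxd7 relative to WT_IRd7, 8 of 10 fell and none rose, all but Nfkb1 and Birc3, against 2.66% of all genes lower and 2.58% higher. The median was -0.88 against 0.01 over all genes, and all libraries were lower for 5, which held for 3.02% of all genes. This WT count was 2 without WT_IRNxd7 replicate 2, those 2 being Vcam1 and Cd44, and 9 without WT_IRNxd7 replicate 3. The calls lost without replicate 2 had estimates from -0.544 (Relb) to -1.246 (Tnfaip3) there. Their edgeR adjusted p-values ran from 0.0636 (Nfkb2) to 0.171 (Relb). The share of all genes called without that library was not counted. The 6 of the first set were called with each library left out in turn.

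**Figure D3:**
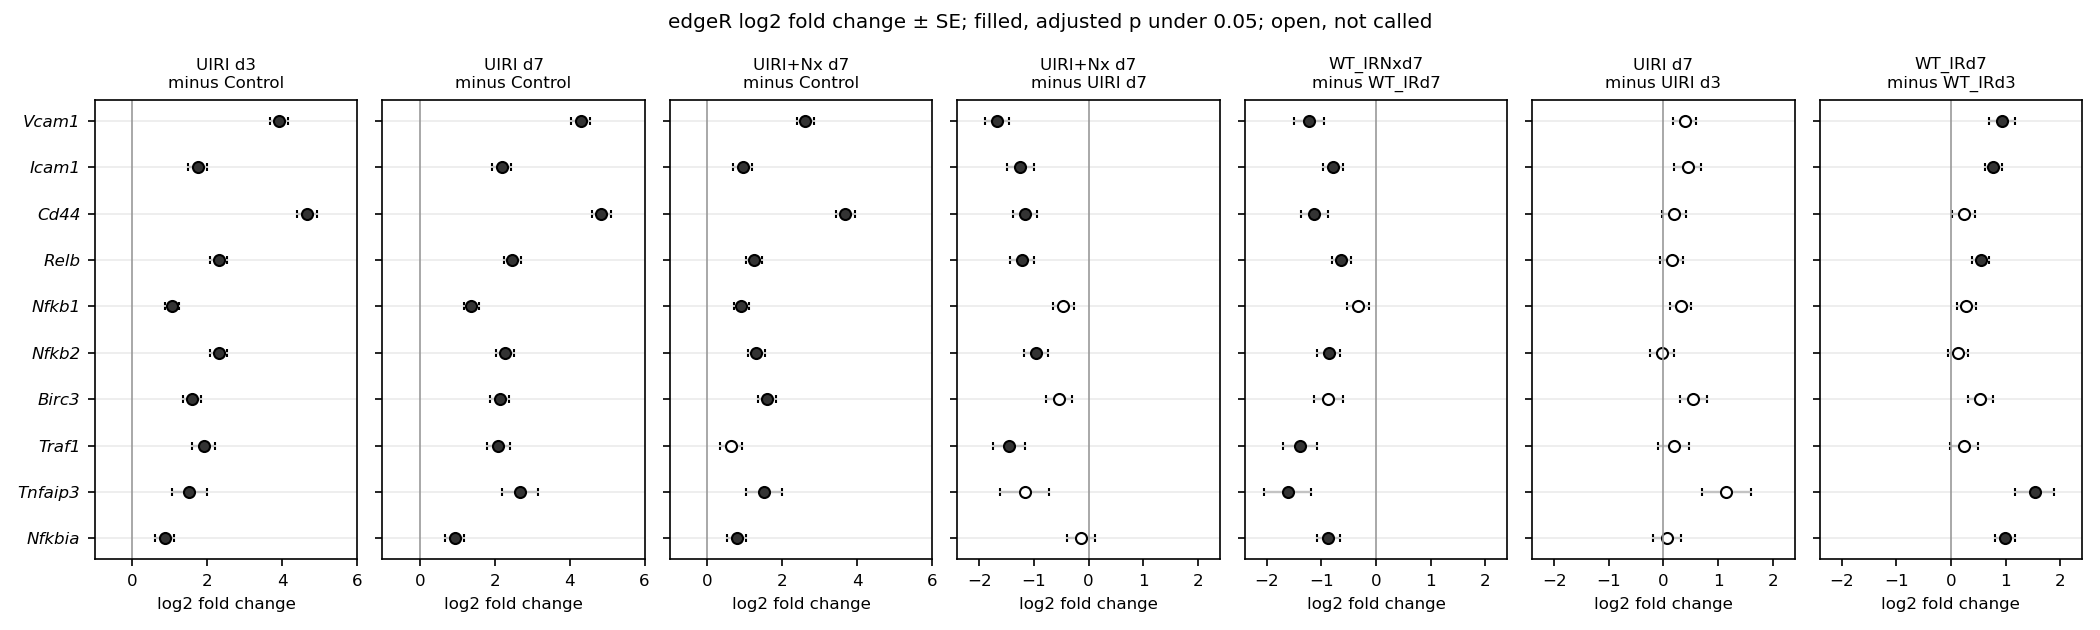
Log2 fold change ± SE (x axis) of the 10 genes (rows) in 7 comparisons (panels), from edgeR; filled points have an adjusted p under 0.05. All 10 estimates lie below 0 in UIRI+Nx d7 minus UIRI d7 and in WT_IRNxd7 minus WT_IRd7.

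From day 3 to day 7 the first set gave no call among the 10 genes in either direction by edgeR or by DESeq2, with 2 of 10 (Birc3 and Tnfaip3) higher at an unadjusted p under 0.05. Of all genes, 7.06% were higher at that unadjusted p, and edgeR called 1.24% higher and 1.36% lower after adjustment. In the WT set, 5 of 10 rose in WT_IRd7 relative to WT_IRd3 (Vcam1, Icam1, Relb, Tnfaip3 and Nfkbia), against 4.51% of all genes higher and 4.05% lower. With the library block as a covariate, 1 of 10 was called. All WT_IRd3 libraries belong to a single block, so that part of this difference cannot be told apart from the block. UIRI+Nx d7 relative to UIRI d3 gave 5 falls (Vcam1, Cd44, Relb, Nfkb2 and Traf1), with 3.06% of all genes lower and 2.06% higher, and 5 falls also without UIRI d3 replicate 3. DESeq2 called 6, Icam1 among them. For WT_IRNxd7 relative to WT_IRd3 there were 3 falls (Cd44, Nfkb2 and Traf1), with 3.04% of all genes lower and 2.97% higher, and the count was 0 when the fit held those groups alone, 0 without WT_IRNxd7 replicate 2, and 1 without WT_IRNxd7 replicate 4, WT_IRd3 replicate 1 or WT_IRd3 replicate 3.

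Whether the sets differed was tested in the joint fit. No gene was called for a difference between the sets in the nephrectomy effect (0% of 16606 genes by edgeR, 1411 genes at an unadjusted p under 0.05, 4 genes by DESeq2). The same held for the difference in the day effect (0% by edgeR, 484 genes at an unadjusted p under 0.05, 0 by DESeq2). Among the 10 genes, Nfkbia alone had an unadjusted p under 0.05 in each (0.0454 and 0.00793). The sets were aligned to different builds per the submitters' processing notes, and set and build cannot be told apart.

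Library blocks, read from sample-sheet numbers in the column names, gave within-block values. Shares and medians over all genes were not counted within blocks, so the counts below have no background beside them. Within block 1a (n = 3 each), 9 of the 10 estimates between UIRI+Nx d7 and UIRI d7 were below 0, with a median of -1.11 and 1 call, a fall. Within the WT blocks all 10 estimates between WT_IRNxd7 and WT_IRd7 were below 0, with medians of -1.15 and 1 fall called in block 2a (n = 2 each) and -0.77 and 0 calls in block 2c (n = 2 and n = 4). Against Control, all 10 estimates were above 0 in each block with at least 2 libraries of both groups, with medians of 2.31 for UIRI d7, 1.83 and 2.003 for UIRI d3, and 1.30 and 1.16 for UIRI+Nx d7. Block 2b held no UIRI d7 library, and block 1b gave no value, with 1 library of each of UIRI+Nx d7, UIRI d3 and Control. Between UIRI+Nx d7 and UIRI d3, 6 of 10 estimates were below 0 in block 1a (median -0.76) and 10 of 10 in block 2b (median -0.87), with 0 calls in either. Between UIRI d7 and UIRI d3, 9 of 10 were above 0 in block 1a, with 0 calls. Between WT_IRd7 and WT_IRd3, 9 of 10 were above 0 in block 2a (n = 2 and n = 6, median 0.60), with 0 calls. Between WT_IRNxd7 and WT_IRd3, 9 of 10 were below 0 in block 2a (median -0.396), with 2 falls.

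Other genes of the pathway were listed by role from general knowledge. Their counts stand against 3.46% of all genes lower and 3.17% higher in UIRI+Nx d7 relative to UIRI d7, and 2.66% lower and 2.58% higher in WT_IRNxd7 relative to WT_IRd7. Of 7 tested ligands that start NF-kappaB signalling, 2 fell in UIRI+Nx d7 relative to UIRI d7: Ltb, a subunit of the lymphotoxin that drives the non-canonical pathway, at 1.397 ± 0.736 CPM against 8.14 ± 4.16 CPM (change of -2.52 on the log2 scale, SE 0.38, edgeR adjusted p = 0.000135), and Tnf, the founding tumour necrosis factor (0.814 ± 0.411 against 2.82 ± 0.94 CPM; -1.78). Ltb fell also in WT_IRNxd7 relative to WT_IRd7 (2.002 ± 0.903 against 7.13 ± 2.13 CPM; -1.86, SE 0.38, adjusted p = 0.00682), with Tnfsf12, which encodes TWEAK, among 7 tested. Of 12 receptors, Cd40 and Tnfrsf1b fell in the first set, and Cd40 and Tlr2 fell in the WT set. Cd40, a receptor on antigen-presenting cells, was at 5.41 ± 0.957 CPM in UIRI+Nx d7 and 12.1 ± 2.45 CPM in UIRI d7, and at 5.37 ± 3.40 CPM in WT_IRNxd7 and 12.6 ± 3.22 CPM in WT_IRd7.

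Downstream of the receptors, 4 of 25 tested adaptors and kinases fell in UIRI+Nx d7 relative to UIRI d7 and 1 of 25 fell in WT_IRNxd7 relative to WT_IRd7, a share near that of all genes. Traf2, a partner of Traf1, was at 11.6 ± 2.14 CPM in UIRI+Nx d7 and 18.8 ± 5.005 CPM in UIRI d7 (log2 fold change -0.69, edgeR adjusted p = 0.0146), and the WT call was Birc2, the cIAP1 gene (-0.55, adjusted p = 0.0491). The other subunits, Rel and Rela, rose over Control in all 3 injured groups, and neither fell with nephrectomy in either set. Their median difference was -0.38 in the first set and -0.41 in the WT set. Of 14 other inhibitors and modulators, 5 fell in each set. Nfkbie, which encodes IkappaB-epsilon, was at 5.08 ± 1.19 CPM in UIRI+Nx d7 and 14.9 ± 5.65 CPM in UIRI d7 (-1.54, SE 0.26, edgeR adjusted p = 0.00048). It was at 5.09 ± 1.53 CPM in WT_IRNxd7 and 14.0 ± 4.90 CPM in WT_IRd7 (-1.46, SE 0.30, adjusted p = 0.00767).

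Among 24 tested targets of NF-kappaB, 4 fell and 0 rose in UIRI+Nx d7 relative to UIRI d7, with a median of -0.37, and 5 fell and 1 rose in WT_IRNxd7 relative to WT_IRd7, with a median of -0.13. Ccl5, a chemokine for T cells, fell in both: 3.71 ± 1.85 CPM in UIRI+Nx d7 against 23.8 ± 10.6 in UIRI d7 (log2 fold change -2.66, SE 0.34, edgeR adjusted p = 2.15e-05), and 5.32 ± 4.09 CPM in WT_IRNxd7 against 31.3 ± 15.9 in WT_IRd7 (-2.55, SE 0.43, adjusted p = 0.0017). Cxcl10, a chemokine induced by interferon, fell in the WT set (7.29 ± 6.83 against 39.9 ± 11.8 CPM). Lcn2, the gene of the injury marker NGAL, went the other way there, at 318 ± 84.3 CPM in WT_IRNxd7 and 151 ± 58.7 CPM in WT_IRd7 (change of 1.08 on the log2 scale, SE 0.22, adjusted p = 0.00565). Relative to Control, 16 of the 24 targets rose and 2 fell in UIRI d7, against 21.5% of all genes higher and 18.1% lower.

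Partners of the adhesion molecules were also counted. Of 9 counter-receptors of VCAM1 and ICAM1, 9 rose in UIRI d7 relative to Control (21.5% of all genes higher), 4 fell in UIRI+Nx d7 relative to UIRI d7, and 2 fell in WT_IRNxd7 relative to WT_IRd7. Spn, which encodes the leukocyte sialoprotein CD43, was at 3.61 ± 0.87 CPM in UIRI+Nx d7 and 13.1 ± 5.02 in UIRI d7 (log2 fold change -1.86, SE 0.24, edgeR adjusted p = 2.46e-05), and at 4.34 ± 1.88 CPM in WT_IRNxd7 and 13.4 ± 4.53 in WT_IRd7 (-1.61). Of 18 other adhesion molecules, 3 fell in the first set and 2 fell and 1 rose in the WT set. Hyaluronan and CD44 partners were called 1 up and 1 down in each set, of 16 and 17 tested. Lyve1, a hyaluronan receptor of lymphatic endothelium and resident macrophages, rose to 8.53 ± 5.04 CPM in UIRI+Nx d7, against 0.521 ± 0.314 in UIRI d7 (3.96, SE 0.53, adjusted p = 3.83e-05), and Cd74, which encodes the invariant chain of MHC class II, fell (77.7 ± 37.5 against 383 ± 242 CPM). In the WT set Lyve1 rose to 6.598 ± 4.47 CPM in WT_IRNxd7, against 0.399 ± 0.418 in WT_IRd7 (3.89, SE 0.59, adjusted p = 0.000635), and Cd74 fell by 1.49 on the log2 scale.

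Other markers of failed tubule repair were higher after injury too: 18 of 20 rose in UIRI d7 relative to Control, 16 rose and 1 fell in UIRI d3, and 17 rose in UIRI+Nx d7. Of all genes, 21.5% rose in UIRI d7, 17.8% in UIRI d3 and 17.3% in UIRI+Nx d7. Sox9, a transcription factor of regenerating tubule cells, was at 181 ± 42.8 CPM in UIRI d7 and 5.61 ± 1.24 CPM in Control (log2 fold change 5.01, SE 0.29, edgeR adjusted p = 1.34e-12). With nephrectomy, 6 of 20 fell in each set and none rose, with medians of -0.48 and -0.27. Sema5a was at 130.5 ± 20.1 CPM in UIRI+Nx d7 and 293 ± 90.4 in UIRI d7 (log2 fold change -1.17, SE 0.21, edgeR adjusted p = 0.00103), and Dcdc2a, a marker of such cells in mouse kidney, fell in both sets (-0.91 and -0.54). Havcr1, the KIM-1 gene, was at 198 ± 113 CPM in WT_IRNxd7 and 685 ± 229 CPM in WT_IRd7 (-1.79, SE 0.34, adjusted p = 0.00372).

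The same lists were counted without the libraries that stood apart, an alternative chosen after seeing the data. Without UIRI d7 replicate 4, the falls in UIRI+Nx d7 relative to UIRI d7 were 1 ligand, 2 adaptors, 6 targets and 8 repair markers, and Tnf was not called (edgeR adjusted p = 0.0577). Without WT_IRNxd7 replicate 3, the falls in WT_IRNxd7 relative to WT_IRd7 were 1 ligand and 0 adaptors, and Tnfsf12 (edgeR adjusted p = 0.0503), Birc2 (0.0587) and Dcdc2a (0.0517) were not called. Inhibitors were at 5 and 6 falls, and receptors at 2 and 2, without those libraries. Without UIRI d7 replicate 4, other adhesion molecules and macrophage markers were each at 2 falls in UIRI+Nx d7 relative to UIRI d7. In UIRI d7 relative to Control, 15 targets and 19 repair markers then rose. Of 10 endothelial markers, 1 rose and 4 fell in that comparison.

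**Figure D4:**
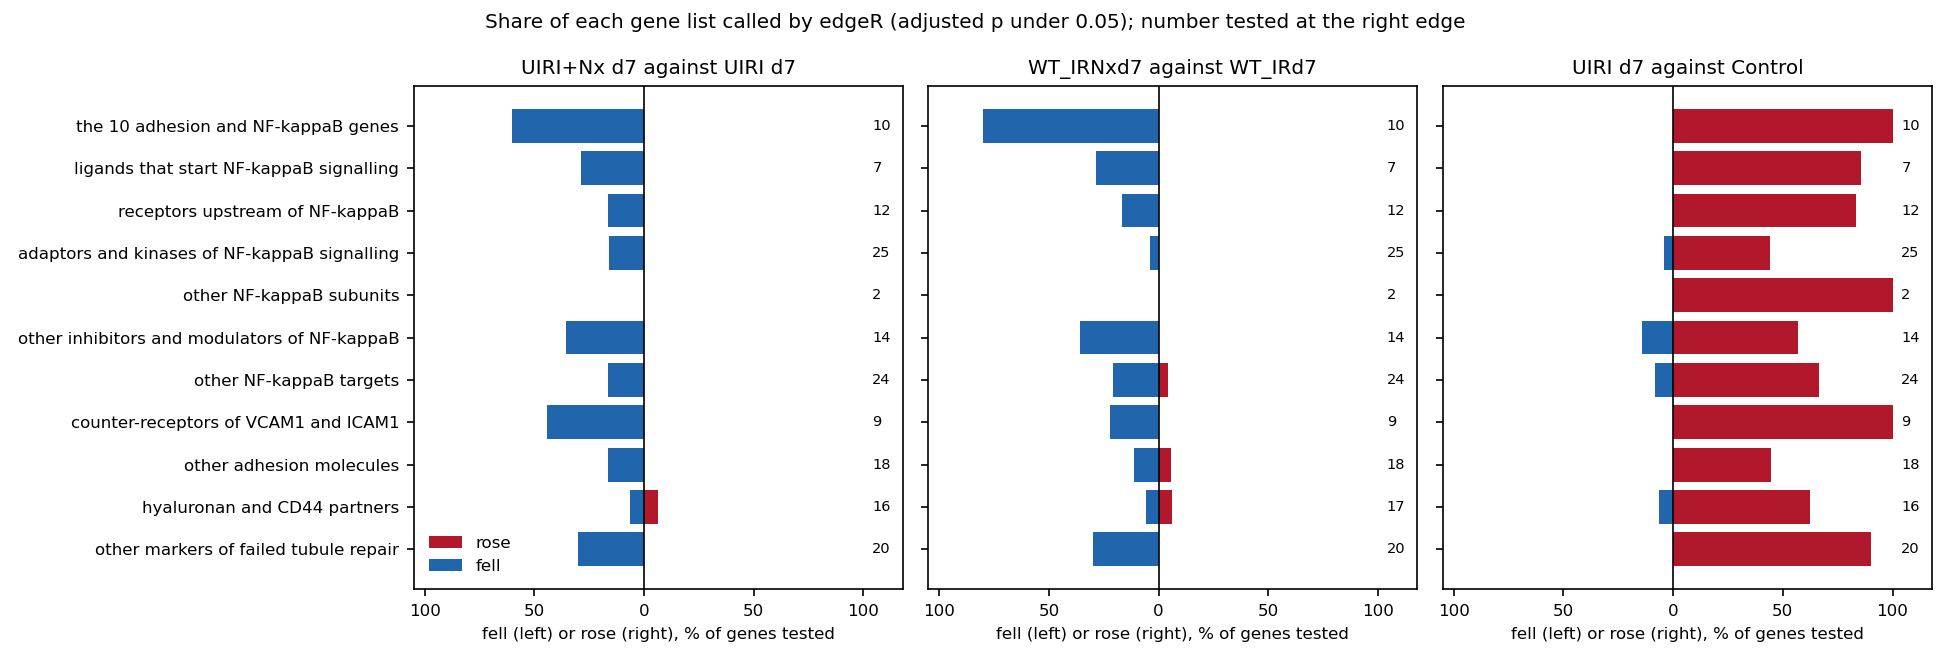
Share of the tested genes of each list that rose (right) or fell (left) by edgeR at an adjusted p under 0.05 in UIRI+Nx d7 against UIRI d7, WT_IRNxd7 against WT_IRd7 and UIRI d7 against Control; the number tested stands at the right edge of each panel. The 10 adhesion and NF-kappaB genes fell at 6 of 10 and 8 of 10 in the first 2 panels and rose at 10 of 10 against Control.

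Markers of cell types were also summed, and the lists did not all move the same way. In bulk tissue, fewer cells of a type and less RNA per cell cannot be told apart. The summed level of 8 T and NK cell markers was 0.978 to 7.27 CPM in UIRI+Nx d7, 11.1 to 31.9 CPM in UIRI d7, 2.81 to 14.1 CPM in UIRI d3 and 6.95 to 13.1 CPM in Control. It was 1.44 to 6.58 CPM in WT_IRNxd7, 12.1 to 25.6 CPM in WT_IRd7 and 6.89 to 10.7 CPM in WT_IRd3. The sums were thus lower in UIRI+Nx d7 than in UIRI d7 and in WT_IRNxd7 than in WT_IRd7, without overlap, while UIRI+Nx d7 overlapped UIRI d3 and Control, and 4 of 5 tested fell in the first set and 3 of 6 in the WT set. No marker of that list was at 0 in all libraries of a group, and 7 of the 8 were at 0 in at least 1 UIRI+Nx d7 library. Their part in the lower Vcam1, Icam1, Cd44, Relb, Nfkb2 and Traf1 was not tested.

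The 12 macrophage and monocyte markers summed to 1342 to 2482 CPM in UIRI+Nx d7, 1771 to 3999 in UIRI d7, 569 to 1205 in UIRI d3 and 211 to 420 in Control. In the WT set the sum was 1704 to 2435 CPM in WT_IRNxd7, 2105 to 3986 in WT_IRd7 and 1054 to 1564 in WT_IRd3. All 12 rose in UIRI d7 relative to Control, 3 fell in UIRI+Nx d7 relative to UIRI d7 and 1 fell in WT_IRNxd7 relative to WT_IRd7. Endothelial markers, from cells that also carry VCAM1 and ICAM1, summed to 616 to 907 CPM in UIRI+Nx d7, 656 to 1135 in UIRI d7, 634 to 1051 in UIRI d3 and 796 to 1113 in Control. These ranges overlapped, and 3 of 10 endothelial markers fell and none rose in UIRI d7 relative to Control. The sum of fibroblast and pericyte markers was 2264 to 3071 CPM in UIRI+Nx d7, 1615 to 2679 in UIRI d7, 1545 to 2367 in UIRI d3 and 373 to 494 in Control. Proximal tubule markers summed to 2922 to 6099 CPM in UIRI+Nx d7, 3483 to 4483 in UIRI d7 and 5178 to 5764 in UIRI d3, all below Control. Of 8 markers of the loop of Henle and distal tubule, the sum was 2407 to 3660 CPM in UIRI+Nx d7, 1555 to 2223 in UIRI d7, 2251 to 3281 in UIRI d3 and 6455 to 8040 in Control, and 1835 to 2373 CPM in WT_IRNxd7, 1486 to 2077 in WT_IRd7 and 2370 to 2983 in WT_IRd3. The range in UIRI+Nx d7 lay above that in UIRI d7, and none of the 8 was at 0 in any library. Of the 8 tested, 1 rose and 0 fell in UIRI+Nx d7 relative to UIRI d7, and 2 rose without UIRI d7 replicate 4. Calb1, which encodes a calcium-binding protein of the distal tubule, rose in UIRI+Nx d7 relative to UIRI d7 (360.6 ± 102 against 46.9 ± 11.6 CPM, a change of 2.94 on the log2 scale with SE 0.28, edgeR adjusted p = 6.38e-07) and in WT_IRNxd7 relative to WT_IRd7 (188 ± 79.5 against 16.4 ± 7.57 CPM, 3.54, SE 0.28, adjusted p = 6.59e-07). The part of these cells in the results was not tested.

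**Figure D5:**
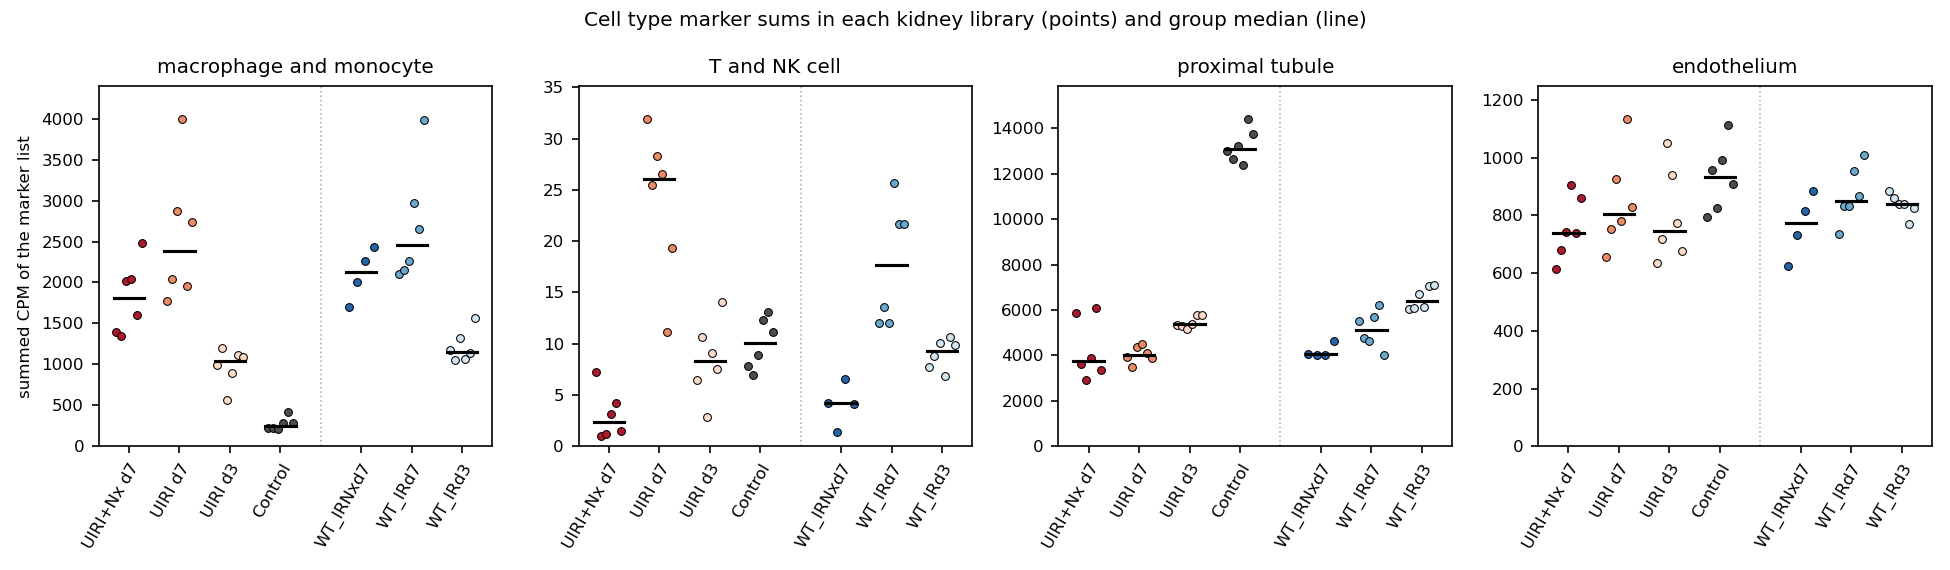
Summed CPM of 4 cell type marker lists in each library (points) with the group median (line), groups ordered with UIRI+Nx d7, UIRI d7, UIRI d3 and Control left of the dotted line and WT_IRNxd7, WT_IRd7 and WT_IRd3 right of it. T and NK cell markers lie at 0.978 to 7.27 CPM in UIRI+Nx d7 and 11.1 to 31.9 CPM in UIRI d7, while endothelial ranges overlap.

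Within groups, correlations among the 10 genes were of both signs. They ran from -0.616 (Relb and Nfkb1) to 0.843 (Nfkb1 and Birc3) in the first set. In the WT set they ran from -0.813 (Nfkb1 and Nfkb2) to 0.898 (Cd44 and Birc3). Over the 45 pairs, the Pearson correlation of log2(CPM + 1) deviations from the group means was positive for 27 pairs across the 24 libraries of the first set and for 32 across the 16 WT libraries, with medians of 0.13 and 0.23, and for 22 in both. These values describe libraries that differ in depth and cell makeup, and the share of positive pairs over all genes was not counted. By the same measure, the other genes most like each of the 10 in both sets were Dse and Smu1 for Cd44 (r of 0.82 and 0.80 in the first set and 0.85 and 0.94 in the WT set), Ankrd6 and Ccl8 for Vcam1 (0.72 and 0.69, and 0.89 and 0.91), and Zc3h18 and Nectin2 for Relb (0.85 and 0.81, and 0.83 in each). Dse encodes an epimerase that makes dermatan sulfate, and Ccl8 a chemokine. The pairs were Atf2 and Cnep1r1 for Nfkb1, Ndufa13 and Rpl31 for Nfkb2, Prr13 and Ndufa7 for Icam1, Twsg1 and Dram2 for Birc3, Lrrc41 and Nat2 for Tnfaip3, and Mphosph6 and Ddit4 for Nfkbia. For Traf1 the likeness was weaker, at 0.68 and 0.62 in the first set and 0.62 and 0.61 in the WT set for 2700097O09Rik and Dock11. Without the 2 libraries of each set farthest from the Traf1 median, these were 0.304 and 0.455, and 0.546 and 0.382. All these genes were picked by their correlation among 15236 tested in both sets, so the values are not an independent check.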

How the data were processed

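Messenger RNA was measured in 41 mouse kidney libraries, 40 of them in 7 groups. Per the labels, RNA was extracted with a PureLink kit and 3′ end libraries were made with the QuantSeq FWD kit from 500 ng of RNA. The authors deposited one table of raw gene counts, not normalized. The first set was processed, per the submitters' processing notes, with Trimmomatic, STAR and HTSeq 0.6.1 on GRCm38 (mm10), and the WT set with STAR 2.7.11b on GRCm39. The sources used here do not give the annotation release, the strand setting or the WT set's counting tool. Since 3′ end reads were counted, a count depends on the annotated transcript end and says little about levels between genes.

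Symbols were matched to 48349 of 48795 identifiers. Positions were taken from GENCODE for GRCm38. Each set was fitted separately over its groups with edgeR 4.0.16 in R 4.3.3 (TMM scaling, filterByExpr, quasi-likelihood test, Benjamini-Hochberg over all genes tested), and both sets jointly (16606 genes) for differences between sets. The standard error is the absolute log2 fold change divided by the square root of F. The scripts were tested on simulated data. Alternatives were RLE scaling, DESeq2 1.42.0, no filter on low counts, only the groups compared, a replicate block, the library block as a covariate, and leaving out each library. Total counts of 5090418 to 33362940 leave few counts for Tnfaip3 and Traf1.

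The 10 genes and all lists were chosen with earlier results of these data known. Beside the 10, up to 3 genes per list and comparison with the smallest adjusted p past 0.05 could be named, and per gene the 2 others with the largest smaller correlation over both sets (log2 CPM with a pseudocount of 1). Library blocks were inferred from sheet numbers in the header, since no label names a batch. A library titled as undetermined has no group and entered no comparison.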

Additional observations from a re-analysis of the deposited data

Results flagged for a closer look

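In 3 of the 70 sets of libraries checked (10 genes in 7 groups) a single library lay far from the rest of its group, and chance alone gives about 1 in 20. Cd44 was at 39.3 CPM in UIRI+Nx d7 replicate 6, with the nearest other library of that group at 48.0 CPM. Cd44 was at 5.73 CPM in Control replicate 6, with the nearest at 3.89 CPM. Nfkb1 was at 30.4 CPM in WT_IRNxd7 replicate 1, with the nearest at 19.8 CPM.

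The library with no group, of 12446693 counts, is titled as undetermined. Which kidneys its reads came from is not given in the sources used here, and it may hold reads of several. It held all 10 genes above the highest Control library. The share of all genes that did so was not counted, so this count has no background beside it. On plain CPM (relative to the library total, with no TMM scaling), it had 302.8 of Vcam1, 33.3 of Icam1, 74.96 of Cd44, 30.9 of Relb, 24.6 of Nfkb1, 25.3 of Nfkb2, 16.1 of Birc3, 6.11 of Traf1, 2.81 of Tnfaip3 and 449.7 of Nfkbia. The highest Control values on that scale were 29.2 for Vcam1, 4.75 for Cd44 and 1.86 for Tnfaip3. The Wilson 95% interval was 293 to 313 for Vcam1 and 2.02 to 3.91 for Tnfaip3, covering counting error only.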

How the results depend on the processing

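No gene of the 10 reversed its direction with a call under any alternative. Of the alternative values for single genes, 2031 kept their side of the threshold, 57 lost a call and 12 gained one. The uncalled Nfkbia difference between UIRI+Nx d7 and UIRI d7 was 0.061 with the library block as a covariate. In the first set the counts of genes that rose or fell stayed within 1.5 times the values given. Leaving out 1 library each, the falls in UIRI+Nx d7 relative to UIRI d7 were 6 throughout, the rises over Control were 8 to 9 in UIRI+Nx d7, and the falls relative to UIRI d3 were 5 to 6. For WT_IRNxd7 relative to WT_IRd7 the 8 falls ran from 2 to 9, the lowest without WT_IRNxd7 replicate 2. The 5 rises in WT_IRd7 relative to WT_IRd3 ran from 4 to 5, and were 1 with the library block as a covariate. The 3 falls in WT_IRNxd7 relative to WT_IRd3 ran from 0 to 2 when a library was left out. They were 0 with only the 2 groups compared and 1 with the library block. The cause was not tested.

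With the replicate block, 6 genes fell in UIRI+Nx d7 relative to UIRI d7 and 7 in WT_IRNxd7 relative to WT_IRd7. Whether equal replicate numbers pair the samples is not known. Correlations of deviations between same-numbered libraries ran from -0.48 to 0.518 over 50 pairs, with 19 above 0.1. Pairs with unlike numbers were not counted, so this range cannot decide it. Depth limits Tnfaip3 and Traf1, which had as few as 6 and 12 counts in a library. Groups of 4 and 6, unknown husbandry of the WT set and inferred blocks limit the rest.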
